A study of Chionodraco hamatus and Gymnodraco acuticeps and Trematomus bernacchii with 9 samples.

Results

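Transcripts of the mitochondrial respiratory chain and of ATP synthase were followed in head kidney, the organ in which bony fish make most of their blood cells, of 3 Antarctic notothenioid species. Chionodraco hamatus is an icefish, from a family whose members lack hemoglobin. Gymnodraco acuticeps, a dragonfish, and Trematomus bernacchii carry hemoglobin in red cells. Each species gave 3 libraries of bulk RNA, written here as replicates, or libraries, 1 to 3. The labels name no treatment, age or sex for any of them. They do not say whether the libraries of a species came from separate fish, so p-values measure the spread between these libraries, which may be technical. The series title concerns suppressed red cell formation and TGF-β signalling in the icefish, and does not mention the respiratory chain.

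Each row of the deposited count table is a UniProt entry name, a protein mnemonic joined to the code of the organism it was described in. Rows were taken by their mnemonic, with a pattern that covers the subunits of complexes I to V, cytochrome c and the assembly factors named alike. The pattern found 88 of 12653 rows. Of these, 12 were not taken as part of the chain (open reading frames numbered on the X chromosome, connexins and the nearly empty row CYCA_TAKRU). The other 76 rows comprised 22 of complex I, 3 of complex II, 7 of complex III, 2 of cytochrome c, 15 of complex IV, 13 of complex V and 14 of assembly and associated factors. They carry 66 mnemonics from 20 organisms. No row of a protein encoded in mitochondrial DNA was among them, so the catalytic core of complex IV and the membrane core of complex I were not analysed here.

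Complex I takes electrons from NADH and complex II takes them from succinate, and both pass them to ubiquinone. Complex III hands them through cytochrome c to complex IV, which reduces oxygen to water. The proton gradient that complexes I, III and IV build drives ATP synthase, complex V. Mature red cells of fish keep a nucleus and mitochondria, and icefish supply their tissues with oxygen dissolved in plasma.

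Library totals ran from 2501922 to 12055675 counts, and the C. hamatus libraries stood apart from each other. All counts above 0 in its replicate 3 were even numbers (100%), against 47.0% to 52.2% in the other 8 libraries. Levels are given as CPM, counts scaled to a common library size. The 5 rows of interrenal (steroid-making) markers summed to 24223 CPM in C. hamatus replicate 3, against 13.9 and 26.1 CPM in replicates 1 and 2 and at most 70.4 in the other species. Both rows of STAR, the steroid carrier of these cells, were at 0 in replicates 1 and 2. The 8 rows of chromaffin (catecholamine-making) markers summed to 4.64, 7360 and 2970 CPM in C. hamatus replicates 1 to 3, against at most 44.0 in G. acuticeps and 306 in T. bernacchii. The tyrosine hydroxylase row TY3H_ANGAN was at 0 in C. hamatus replicate 1. The 18 rows of skeletal muscle markers summed to 469 to 975 CPM in C. hamatus, where CASQ1_RAT was the highest row, to 22385 to 34802 in G. acuticeps, mostly ACTS_ORYLA, and to 563 to 3037 in T. bernacchii. The 15 erythroid rows summed to 363 to 848 CPM in C. hamatus, where the globin rows HBA_TREBE and HBB_TREHA were at 0, to 27353 to 45424 in G. acuticeps and to 71463 to 175117 in T. bernacchii. The 5 leukocyte rows summed to 1019 to 3035 CPM in C. hamatus, to 563 to 1292 in G. acuticeps and to 1842 to 2401 in T. bernacchii. In bulk RNA, fewer cells of a type and less RNA per cell cannot be told apart, and the part of these markers in the results was not tested. Where a chain row's call in a pair changed without C. hamatus replicate 2 or 3, the value without that library is given. In places it is part of a range over several libraries. Such changes are given for only some of the genes outside the name pattern. Sums of rows were tested with all libraries only.

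Counts were scaled by the trimmed mean of M values (TMM) and compared with edgeR's quasi-likelihood test over the 8662 rows that passed its filter on low counts, of which 74 were rows of the chain. Calls were made where the p-value, adjusted over all 8662 rows by the Benjamini-Hochberg method, was under 0.05. The rows that did not pass were ATPK_RAT, with 1 count in all, and ATP5J_BOVIN, with 60 counts in C. hamatus replicate 3 and at most 15 in any other library. Where a value under a changed setting is given, "alternatives" marks the lowest and highest adjusted p over all settings tried for that row and pair. For chain rows these settings include rows of 1 mnemonic summed, where the adjusted p is that of the sum and not of the row alone.

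Against G. acuticeps, 24 of the 74 rows were called in C. hamatus (32.4%), 9 higher and 15 lower, beside 42.0% of all rows tested (25.1% higher and 16.8% lower). Against T. bernacchii, 12 of 74 were called (16.2%), 5 higher and 7 lower, beside 32.4% of all rows (17.6% higher and 14.8% lower). With globin and skeletal muscle rows left out before scaling, that split was 4 higher and 9 lower. The share of all rows was then 33.1% (1476 higher and 1392 lower). With the same rows left out, the split against G. acuticeps was 9 higher and 19 lower. All rows there gave 42.2% (2035 higher and 1623 lower). Between G. acuticeps and T. bernacchii, 14 of 74 were called (18.9%), 5 higher and 9 lower, beside 31.4% (13.1% higher and 18.3% lower). The 24 rows called against G. acuticeps became 13 without G. acuticeps replicate 2 and 14 without its replicate 3, where the share of all rows called fell to 29.0% and 30.1%. The 14 rows called between G. acuticeps and T. bernacchii became 6 and 7 in the same settings, beside 19.99% and 21.7% of all rows. They became 9 without T. bernacchii replicate 1 and 8 without its replicate 2, beside 24.9% and 28.8% of all rows. With all libraries and the filter, the share of chain rows called was below that of all rows in each pair, a description that carries no test. In C. hamatus against G. acuticeps that order turned in 2 settings. Without C. hamatus replicate 3 the shares were 43.2% of chain rows and 41.3% of all rows, and with no filter on low counts they were 31.6% and 30.0%.

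Rows that set 1 species apart from both others in the same direction were few. In C. hamatus there were 7 of 74 (9.46%), 4 higher and 3 lower, beside 18.0% of all rows (10.1% higher and 7.87% lower). The higher rows were DHSDB_DANRE, COX6A_CYPCA, COX5B_BOVIN and COX42_THUOB, and the lower ones NDUV3_BOVIN, CX6B1_BOVIN and COX7R_HUMAN. Without globin and skeletal muscle rows in the scaling, the split was 3 higher and 4 lower, beside 18.1% of all rows (824 higher and 742 lower). The 7 rows became 4 without G. acuticeps replicate 2 and 11 without C. hamatus replicate 3, beside 13.5% and 17.2% of all rows. G. acuticeps stood apart on 7 rows, 3 higher (NDUA9_BOVIN, CX6C1_THUOB and ATPD_MOUSE) and 4 lower (NDUS1_HUMAN, QCR6_HUMAN, CYC_KATPE and COX16_MOUSE), beside 17.4% of all rows (5.91% and 11.5%). These 7 rows became 1 without G. acuticeps replicate 2 or without its replicate 3, lower in both settings, beside 9.97% and 11.2% of all rows. They became 2, both lower, without T. bernacchii replicate 2 (15.0% of all rows) and 4, all lower, without its replicate 1 (14.9%). Without C. hamatus replicate 3 they became 10 (18.2%). T. bernacchii stood apart on 4 rows, 3 higher (NDUB6_PONPY, QCR7_BOVIN and CX6B1_BOVIN) and 1 lower (COX14_DANRE), beside 12.1% (5.96% and 6.1%).

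Fitted differences under 2-fold were found for 35 of 72 chain rows counted in C. hamatus or G. acuticeps (48.6%), beside 37.2% of all rows. For C. hamatus and T. bernacchii the share was 48 of 74 (64.9%), beside 43.0%, and for G. acuticeps and T. bernacchii 46 of 73 (63.0%), beside 43.3%. The median log2 fold change of the 74 rows was -0.33 against G. acuticeps (-0.36 with rows at 0 set to their bound) and -0.15 against T. bernacchii, beside 0.15 and 0.02 over all rows. When globin and muscle rows were left out before scaling, the median over all rows in C. hamatus minus G. acuticeps became 0.00 and that of the chain rows -0.51. The chain median thus lay 0.48 below that of all rows with the first scaling and 0.51 below it with the second.

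**Figure D1:**
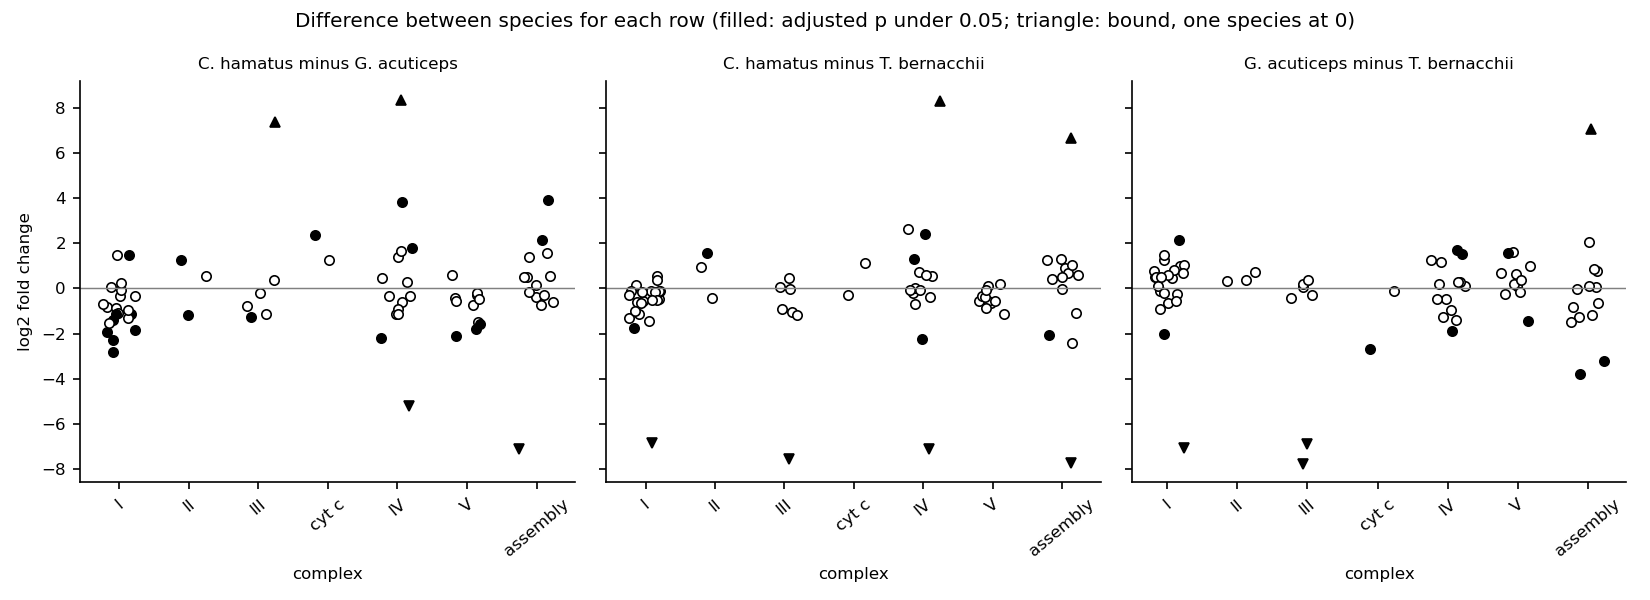
Log2 fold change of tested rows (vertical axis) by complex for the 3 pairs of species. Rows at 0 counts in both species of a pair are not shown. Filled symbols were called, circles are fitted values and triangles are bounds for rows at 0 counts in all libraries of 1 species. Between C. hamatus and G. acuticeps 21 of the 22 tested complex I rows are shown. In that pair 17 of the 22 fitted values of complex I and 10 of 11 of complex V lay below 0, beside 45.7% of all rows.

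Rows of complex I and complex V lay mostly on the lower side in C. hamatus. Relative to the mean of the other species on the log2 scale, 19 of 22 complex I rows and 11 of 11 tested complex V rows were below 0, beside 45.8% of all rows. Few of these single differences passed the test. They were 3 of 22 in complex I and 2 of 11 in complex V, all lower. In complex I, the call of NDUV2_BOVIN was lost when C. hamatus library 1 or 2 was left out (values -1.54 to -1.27, alternatives 0.00498 to 0.0996). In complex V, that of ATP5H_HUMAN was lost when C. hamatus library 2, or G. acuticeps library 2 or 3 was left out (values -1.50 to -1.20, alternatives 0.00687 to 0.266). The call of ATPD_MOUSE was lost when C. hamatus library 1, 2 or 3, G. acuticeps library 2 or 3, or T. bernacchii library 1 or 3 was left out (values -1.55 to -1.05, alternatives 0.0201 to 0.318). Without C. hamatus replicate 3, 6 of 22 complex I rows passed, all lower, beside 37.4% of all rows (2059 higher and 1281 lower). With all libraries, 9 of the 74 chain rows were higher and 10 lower relative to that mean. Of all rows 26.5% and 14.3% were, or 40.8% in either direction. These 19 chain rows became 12 without C. hamatus replicate 2, beside 32.8% of all rows. The median for complex I was -0.62, and for complex V -0.46, beside 0.20 over all rows. Without C. hamatus replicate 3, 19 of 22 and 10 of 11 rows were below 0, with medians of -0.88 and -0.68. The median over all rows was then 0.07. With C. hamatus replicate 1 alone, they were 18 of 22 and 8 of 11, with medians of -0.71 and -0.46. There the median over all rows was -0.09.

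As a share of all counts in a library, complex I held 0.135, 0.145 and 0.291% in C. hamatus replicates 1 to 3. G. acuticeps had 0.343, 0.331 and 0.360% and T. bernacchii 0.248, 0.291 and 0.278%. Replicates 1 and 2 of C. hamatus were below each library of the other species. By this share, replicate 3 was level with the highest T. bernacchii library. In TMM-scaled CPM complex I summed to 1618, 1227 and 2481 in C. hamatus and to 2391, 2545 and 3202 in T. bernacchii. There replicate 3 was above the lowest T. bernacchii library only. For complex V the shares were 0.219, 0.204 and 0.329% in C. hamatus, with 0.248, 0.375 and 0.495% in G. acuticeps and with 0.332, 0.351 and 0.340% in T. bernacchii. Each C. hamatus library was below each T. bernacchii library, replicate 3 narrowly, and the G. acuticeps libraries ran widely.

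Complex IV held 0.140, 0.152 and 0.306% in the C. hamatus libraries, 0.130, 0.187 and 0.232% in those of G. acuticeps and 0.173, 0.190 and 0.176% in those of T. bernacchii, and all groups overlapped. Complex III held 0.0346, 0.0360 and 0.0698% in the C. hamatus libraries, 0.0382, 0.0445 and 0.0565% in those of G. acuticeps and 0.0652, 0.0791 and 0.0701% in those of T. bernacchii. By this share, replicate 3 was the one C. hamatus library to reach the T. bernacchii range. In TMM-scaled CPM none did, with sums of 415, 305 and 595 in C. hamatus and 628, 692 and 807 in T. bernacchii. Complex II held 0.0307, 0.0398 and 0.0790% in the C. hamatus libraries, 0.0494, 0.0309 and 0.0233% in those of G. acuticeps and 0.0238, 0.0294 and 0.0242% in those of T. bernacchii, so that each C. hamatus library was above each T. bernacchii library. These shares move with whatever else a library holds, and erythroid and muscle markers differed between the species as given above.

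**Figure D2:**
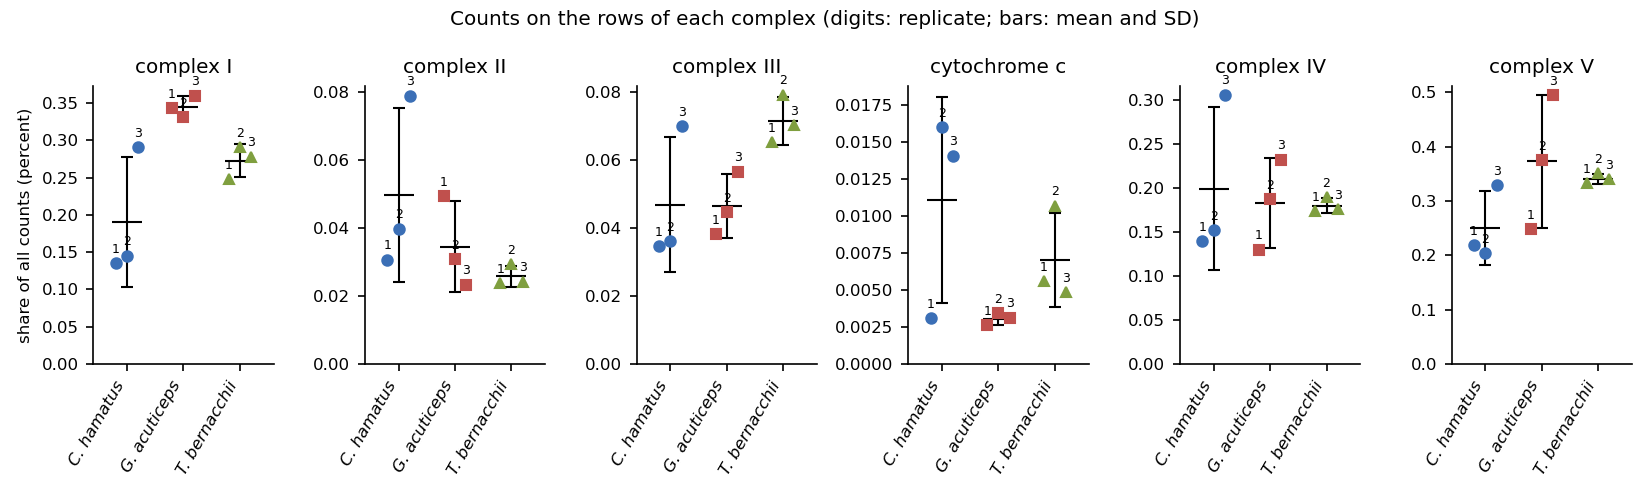
Share of all counts (percent, vertical axes from 0) on the rows of each complex, 1 symbol per library with its replicate number, and the mean and SD of the 3 libraries of a species. Replicate 3 of C. hamatus was the highest of its species in each complex other than cytochrome c.

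Within complex I, 8 of 22 rows (36.4%) were called in C. hamatus against G. acuticeps, 1 higher and 7 lower. Of all rows tested, 42.0% were called in that pair (25.1% higher and 16.8% lower). Against T. bernacchii 2 of 22 were called (9.09%), both lower, beside 32.4% of all rows (17.6% higher and 14.8% lower). NDUV3_BOVIN, a small accessory subunit at the NADH-oxidising tip, had the lowest fitted value of complex I against G. acuticeps. It stood at 18.1, 16.9 and 17.5 CPM in C. hamatus, against 87.2, 116 and 166 in G. acuticeps and against 59.1, 42.4 and 77.0 in T. bernacchii. The 3 C. hamatus libraries were nearly equal and below all 6 others. The log2 fold change in C. hamatus was -2.81 (SE 0.42, adjusted p = 0.000683) against G. acuticeps and -1.77 (SE 0.40, adjusted p = 0.00753) against T. bernacchii. Both calls were made without each library in turn, and with C. hamatus replicate 1 alone the value against T. bernacchii was -1.70 (adjusted p = 0.0923, alternatives 0.000669 to 0.0923).

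NDUV2_BOVIN and NDUV1_MOUSE are core subunits of the same tip, which binds NADH and flavin. NDUV2_BOVIN had 39.7, 22.0 and 64.3 CPM in C. hamatus replicates 1 to 3, with 107, 145 and 196 CPM in G. acuticeps and with 99.5, 66.0 and 145 CPM in T. bernacchii. All C. hamatus libraries were below all libraries of the other species, replicate 3 only narrowly below T. bernacchii replicate 2. The difference was -1.83 (SE 0.50, adjusted p = 0.0144) against G. acuticeps, or -1.60 (adjusted p = 0.0571, alternatives 0.00362 to 0.0683) without G. acuticeps replicate 3, and -1.30 (SE 0.49, adjusted p = 0.0664) against T. bernacchii, or -1.75 (adjusted p = 0.0295, alternatives 0.0295 to 0.24) without C. hamatus replicate 3. NDUV1_MOUSE had 45.0, 58.5 and 57.2 CPM in the C. hamatus libraries, 73.8, 101 and 136 in those of G. acuticeps and 66.3, 76.4 and 53.3 in those of T. bernacchii. Its C. hamatus libraries were below those of G. acuticeps and overlapped those of T. bernacchii. It was called in neither pair, at -0.95 (adjusted p = 0.0633) and -0.29 (adjusted p = 0.6). Without T. bernacchii replicate 2 it was called against G. acuticeps, at -0.98 (adjusted p = 0.0491, alternatives 0.0342 to 0.203).

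NDUS1, the large iron-sulfur subunit of that module, was counted on a bovine and a human row. NDUS1_HUMAN stood at 47.3, 36.5 and 61.6 CPM in C. hamatus, against 17.1, 18.1 and 16.5 in G. acuticeps and against 104, 42.4 and 64.0 in T. bernacchii. The G. acuticeps libraries were below the others. The values were 1.49 (SE 0.44, adjusted p = 0.0203) in C. hamatus against G. acuticeps, lost when G. acuticeps library 1, 2 or 3 was left out (values 1.43 to 1.46, alternatives 0.00736 to 0.868), and -2.02 (SE 0.45, adjusted p = 0.00647) in G. acuticeps against T. bernacchii, called without each library in turn. NDUS1_BOVIN was called in neither, at -0.32 (adjusted p = 0.519) and -0.24 (adjusted p = 0.66). With both rows added, the values were 0.09 (SE 0.35, adjusted p = 0.868) and -0.64 (SE 0.35, adjusted p = 0.199). The human row took 32.3, 28.2 and 40.7% of NDUS1 counts in the C. hamatus libraries, 17.7, 14.4 and 9.12% in those of G. acuticeps and 45.9, 21.8 and 31.4% in those of T. bernacchii.

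NDUS2_BOVIN, a core subunit at the ubiquinone site, had 166, 119 and 399 CPM in C. hamatus replicates 1 to 3, with 337, 368 and 494 CPM in G. acuticeps and with 424, 949 and 481 CPM in T. bernacchii. C. hamatus replicates 1 and 2 were below all 6 libraries of the other species and replicate 3 was not. Neither pair was called, at -0.81 (adjusted p = 0.245) against G. acuticeps and -1.44 (adjusted p = 0.0629) against T. bernacchii. Without replicate 3 both were, at -1.50 (adjusted p = 0.0343, alternatives 0.0343 to 0.506) and -2.12 (adjusted p = 0.0119, alternatives 0.0119 to 0.167).

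The accessory subunit NDUA9_BOVIN, which sits beside that module, had 59.1, 61.9 and 312 CPM in the C. hamatus libraries, 857, 614 and 629 in those of G. acuticeps and 151, 100.3 and 222 in those of T. bernacchii. All G. acuticeps libraries were above all others. The difference was -2.28 (SE 0.67, adjusted p = 0.0201) in C. hamatus against G. acuticeps, and -3.54 (adjusted p = 0.00088, alternatives 0.00088 to 0.0597) without C. hamatus replicate 3. The call was lost when C. hamatus library 2, or G. acuticeps library 1 was left out (values -2.14 to -1.93, alternatives 0.00088 to 0.0597). Against T. bernacchii the row was not called, at -0.13 (adjusted p = 0.907), and without C. hamatus replicate 3 it was called, at -1.38 (adjusted p = 0.0437, alternatives 0.0437 to 0.961). In G. acuticeps against T. bernacchii the value was 2.15 (SE 0.67, adjusted p = 0.0319), lost when G. acuticeps library 1, 2 or 3, or T. bernacchii library 1 or 2 was left out (values 1.91 to 2.35, alternatives 0.00304 to 0.0953). The sum of skeletal muscle markers was higher in the same G. acuticeps libraries than in the other 6, mostly through ACTS_ORYLA. Of 14 tested muscle rows, 2 were called higher in G. acuticeps than in T. bernacchii and 0 lower, beside 13.1% and 18.3% of all rows.

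Among the accessory subunits of the membrane arm, NDUB6_PONPY had no counts in C. hamatus or G. acuticeps, against 104, 51.8 and 107 CPM in T. bernacchii. Set against a floor of 3 counts per library, C. hamatus was at least 114-fold lower (adjusted p = 0.00053) and G. acuticeps at least 132-fold lower (adjusted p = 0.000366) than T. bernacchii. No other NDUB6 row was among the members. A gene cannot be called silent from such a row, because the reads of a species may lie on no row of that name.

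NDUBA_BOVIN, a further subunit of the membrane arm, was chosen after its values were seen, as were the other rows below that the rule for named rows leaves out. It stood at 68.2, 67.0 and 80.6 CPM in C. hamatus, against 223, 268 and 341 in G. acuticeps and against 157, 98.3 and 211 in T. bernacchii. The C. hamatus libraries were below the other 6. The values were -1.95 (SE 0.40, adjusted p = 0.00345) against G. acuticeps, called without each library in turn, and -1.11 (SE 0.39, adjusted p = 0.0512) against T. bernacchii, or -1.37 (adjusted p = 0.0166, alternatives 0.0166 to 0.211) without T. bernacchii replicate 2. The remaining rows called lower against G. acuticeps were NDUB5_MACFA, NDUS3_GORGO and NDUAA_GORGO. NDUB5_MACFA was at -1.38 (adjusted p = 0.0347), lost when C. hamatus library 1 or 2, or G. acuticeps library 2 or 3 was left out (values -1.50 to -1.14, alternatives 0.0198 to 0.122). In G. acuticeps against T. bernacchii it was at 1.26 (adjusted p = 0.0596) with all libraries and at 1.27 (adjusted p = 0.0428, alternatives 0.0322 to 0.175) without C. hamatus replicate 3. NDUS3_GORGO, a core subunit, was at -1.12 (adjusted p = 0.0347), lost when C. hamatus library 2, G. acuticeps library 1, 2 or 3, or T. bernacchii library 1 was left out (values -1.21 to -0.92, alternatives 0.0144 to 0.244). NDUAA_GORGO was at -1.15 (adjusted p = 0.0461), lost when C. hamatus library 1 or 2, G. acuticeps library 2 or 3, or T. bernacchii library 1 or 3 was left out (values -1.22 to -0.87, alternatives 0.0266 to 0.164).

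The other complex I rows were called in none of the 3 pairs. NDUS7_BOVIN and NDUS8_MACFA are core subunits that carry the last iron-sulfur clusters before ubiquinone, and both had positive values in C. hamatus against G. acuticeps, at 0.24 (adjusted p = 0.658) and 1.47 (adjusted p = 0.0509). NDUS8_MACFA was called without T. bernacchii replicate 2, at 1.45 (adjusted p = 0.0194, alternatives 0.0194 to 0.202). NDUB4_BOVIN had 86.5, 34.5 and 187 CPM in C. hamatus replicates 1 to 3, with 199, 269 and 305 CPM in G. acuticeps and with 71.5, 52.8 and 155 CPM in T. bernacchii. C. hamatus replicate 3 was the highest of its species, and without it the difference from G. acuticeps was -2.10 (adjusted p = 0.0226, alternatives 0.0226 to 0.244), against -1.32 (adjusted p = 0.109) with it. NDUS5_BOVIN likewise stood at -1.51 (adjusted p = 0.0729) with all libraries and at -2.23 (adjusted p = 0.0202, alternatives 0.0202 to 0.197) without that one. NDUA6, NDUA8, NDUB2, NDUB7, NDUB9 and NDUS6 ran from -1.08 to 0.07 in C. hamatus against G. acuticeps and from -0.64 to -0.10 against T. bernacchii.

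**Figure D3:**
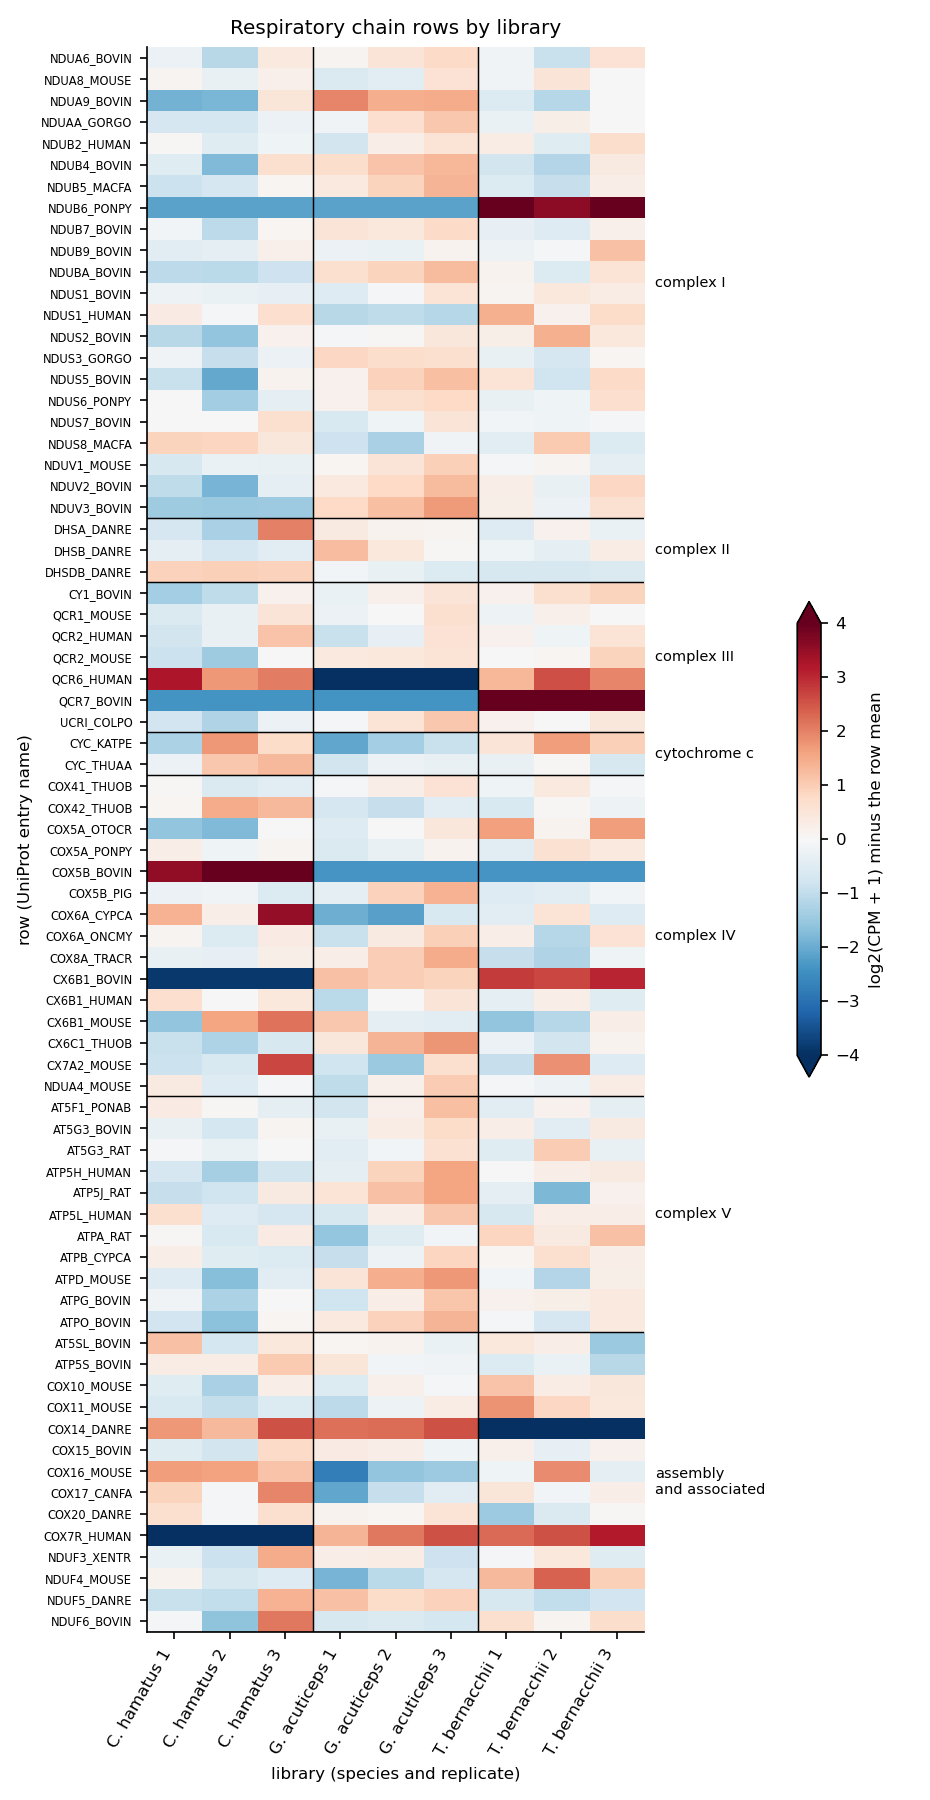
The 74 tested rows by complex in the 9 libraries, as log2(CPM + 1) minus the mean of the row (colour scale from -4 to 4). The rows NDUB6_PONPY, QCR7_BOVIN, QCR6_HUMAN, COX5B_BOVIN, CX6B1_BOVIN, COX14_DANRE and COX7R_HUMAN were at 0 in all libraries of 1 or 2 species.

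In complex II, succinate dehydrogenase, a membrane anchor and the iron-sulfur subunit differed from G. acuticeps in opposite directions. The anchor DHSDB_DANRE, a small cytochrome b subunit, stood at 234, 239 and 232 CPM in the C. hamatus libraries, 114, 99.0 and 82.4 in those of G. acuticeps and 78.3, 77.7 and 81.2 in those of T. bernacchii. The C. hamatus libraries were nearly equal to each other and above all 6 others. The log2 fold change was 1.25 (SE 0.33, adjusted p = 0.0113) against G. acuticeps and 1.57 (SE 0.33, adjusted p = 0.00492) against T. bernacchii. The call against T. bernacchii was made without each library in turn, and that against G. acuticeps was lost when G. acuticeps library 2 or 3 was left out (values 1.11 to 1.17, alternatives 0.000221 to 0.074). DHSB_DANRE, the iron-sulfur subunit, had 78.4, 62.3 and 73.5 CPM in C. hamatus, against 237, 135 and 104 in G. acuticeps and against 87.7, 77.4 and 122 in T. bernacchii. All C. hamatus libraries were below all G. acuticeps libraries and overlapped those of T. bernacchii. The difference was -1.15 (SE 0.41, adjusted p = 0.0435) against G. acuticeps, lost when C. hamatus library 1, 2 or 3, G. acuticeps library 1 or 2, or T. bernacchii library 1 was left out (values -1.33 to -0.78, alternatives 0.0269 to 0.261), and -0.42 (adjusted p = 0.462) against T. bernacchii.

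The value of the flavoprotein DHSA_DANRE, which oxidises succinate, rested on 1 library. It had 56.4, 36.5 and 369 CPM in C. hamatus replicates 1 to 3, with 118, 99.7 and 98.9 CPM in G. acuticeps and with 63.8, 102 and 75.3 CPM in T. bernacchii. C. hamatus replicate 3 was above all other libraries, and replicates 1 and 2 were the lowest of the 9. Neither pair was called with all libraries, at 0.55 (adjusted p = 0.58) against G. acuticeps and 0.94 (adjusted p = 0.363) against T. bernacchii. Without replicate 3 the row was called below G. acuticeps, at -1.19 (adjusted p = 0.0418, alternatives 0.0418 to 0.999).

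Complex III had 2 of 7 rows called in C. hamatus against G. acuticeps, 1 higher and 1 lower, and 1 of 7 against T. bernacchii, lower. The shares of all rows called in these pairs were 42.0% and 32.4%. UCRI_COLPO, the Rieske iron-sulfur protein that passes electrons to cytochrome c1, had 76.1, 55.2 and 109 CPM in the C. hamatus libraries, 125, 188 and 272 in those of G. acuticeps and 146, 128 and 176 in those of T. bernacchii. Each of its C. hamatus libraries was below the other 6. The difference was -1.28 (SE 0.42, adjusted p = 0.0328) against G. acuticeps, lost when C. hamatus library 1 or 2, or G. acuticeps library 2 or 3 was left out (values -1.41 to -0.99, alternatives 0.0181 to 0.131), and -0.90 (SE 0.42, adjusted p = 0.126) against T. bernacchii. CY1_BOVIN, cytochrome c1, had 25.3, 32.5 and 75.1 CPM in C. hamatus, against 55.4, 76.6 and 94.3 in G. acuticeps and against 74.3, 105 and 124 in T. bernacchii. Its lowest libraries were C. hamatus replicates 1 and 2. It was not called with all libraries, at -0.77 (adjusted p = 0.224) and -1.19 (adjusted p = 0.0842). Without replicate 3 it was called lower in both pairs, at -1.40 (adjusted p = 0.028, alternatives 0.028 to 0.436) and -1.81 (adjusted p = 0.013, alternatives 0.013 to 0.231).

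The core proteins QCR1 and QCR2, which hold the complex together, were called in no pair. QCR1_MOUSE had 74.0, 89.3 and 158 CPM in C. hamatus replicates 1 to 3, with 92.8, 111 and 172 CPM in G. acuticeps and with 96.0, 126 and 108 CPM in T. bernacchii, with overlap of all groups. The rows QCR2_HUMAN and QCR2_MOUSE added to 98.9 ± 64.7 CPM in C. hamatus, 117 ± 33.1 CPM for G. acuticeps and 127 ± 38.3 CPM for T. bernacchii (mean ± SD, n = 3 each). QCR2_MOUSE alone was called lower without C. hamatus replicate 3, at -1.62 (adjusted p = 0.0203, alternatives 0.0203 to 0.716) against G. acuticeps and -1.53 (adjusted p = 0.0312, alternatives 0.0312 to 0.608) against T. bernacchii.

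Small subunits of complex III were found on rows that held no counts in some species. QCR6_HUMAN, the acidic hinge protein next to cytochrome c1, had 181, 64.0 and 79.0 CPM in C. hamatus, no counts in G. acuticeps, and 47.4, 114 and 75.0 CPM in T. bernacchii. It was at least 163-fold higher in C. hamatus than in G. acuticeps (adjusted p = 0.00013), or at least 108-fold without C. hamatus replicate 1, and G. acuticeps was at least 119-fold below T. bernacchii (adjusted p = 0.000159). QCR7_BOVIN, a subunit that contacts cytochrome b, had no counts in C. hamatus or G. acuticeps, against 155, 119 and 154 CPM in T. bernacchii. C. hamatus was at least 186-fold lower (adjusted p = 0.000251), and G. acuticeps at least 215-fold lower (adjusted p = 0.000171).

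Cytochrome c, the soluble carrier between complexes III and IV, was counted on rows of albacore and of skipjack tuna. CYC_THUAA had 30.8, 78.2 and 91.7 CPM in the C. hamatus libraries, 21.8, 31.4 and 29.9 in those of G. acuticeps and 29.7, 38.4 and 23.3 in those of T. bernacchii. Replicates 2 and 3 of C. hamatus were above all other libraries, and replicate 1 was not. The row was called in neither pair, at 1.27 (adjusted p = 0.0552) against G. acuticeps and 1.14 (adjusted p = 0.0944) against T. bernacchii. Without replicate 1 it was called in both, at 1.55 (adjusted p = 0.0185, alternatives 0.0185 to 0.893) and 1.53 (adjusted p = 0.0242, alternatives 0.0242 to 0.977). CYC_KATPE had 6.26, 57.2 and 28.2 CPM in C. hamatus, against 3.11, 5.78 and 8.34 in G. acuticeps and against 24.2, 55.2 and 32.6 in T. bernacchii. The highest library was C. hamatus replicate 2, replicate 3 was within the T. bernacchii range, and replicate 1 was within that of G. acuticeps. CYC_KATPE was called in C. hamatus against G. acuticeps at 2.38 (SE 0.77, adjusted p = 0.0302) and in G. acuticeps against T. bernacchii at -2.67 (SE 0.78, adjusted p = 0.0244). The first call was lost when C. hamatus library 2, or G. acuticeps library 1, 2 or 3 was left out (values 1.55 to 2.73, alternatives 0.00757 to 0.966), and the value was 0.10 (adjusted p = 0.966, alternatives 0.00757 to 0.966) with C. hamatus replicate 1 alone. The second was lost when G. acuticeps library 1, 2 or 3, or T. bernacchii library 2 was left out (values -2.97 to -2.28, alternatives 0.00437 to 0.154). With both rows added, cytochrome c stood at 97.5 ± 52.8 CPM in C. hamatus, 33.4 ± 7.42 CPM for G. acuticeps and 67.8 ± 22.4 CPM for T. bernacchii (mean ± SD, n = 3 each), and at 1.54 (SE 0.51, adjusted p = 0.0345) in C. hamatus against G. acuticeps. Chromaffin and kidney tubule marker sums were also higher in C. hamatus replicates 2 and 3 than in replicate 1. Their part was not tested.

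In complex IV, 5 of 15 rows were called in C. hamatus against G. acuticeps, 3 higher and 2 lower, beside 42.0% of all rows. Against T. bernacchii 5 of 15 were called, 3 higher and 2 lower, beside 32.4% of all rows. Subunit 4, the largest of the nuclear-encoded subunits, has 2 isoforms. COX42_THUOB, isoform 2, which in mammals is found mainly in lung and responds to low oxygen, had 49.4, 133 and 116 CPM in C. hamatus replicates 1 to 3, with 29.0, 24.1 and 34.1 CPM in G. acuticeps and with 30.7, 48.8 and 40.8 CPM in T. bernacchii. All C. hamatus libraries were above the others, replicate 1 only just. The log2 fold change was 1.78 (SE 0.46, adjusted p = 0.0106) against G. acuticeps, or 1.56 (adjusted p = 0.0648, alternatives 0.00163 to 0.298) without G. acuticeps replicate 2. Against T. bernacchii it was 1.31 (SE 0.45, adjusted p = 0.046), lost when C. hamatus library 2 or 3, G. acuticeps library 1, 2 or 3, or T. bernacchii library 1 or 3 was left out (values 1.05 to 1.37, alternatives 0.013 to 0.7). With C. hamatus replicate 1 alone the values were 0.76 (adjusted p = 0.298, alternatives 0.00163 to 0.298) and 0.33 (adjusted p = 0.7, alternatives 0.013 to 0.7).

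The common isoform COX41_THUOB had 381, 246 and 270.4 CPM in the C. hamatus libraries, 346, 445 and 552 in those of G. acuticeps and 327, 482 and 354 in those of T. bernacchii. It was called in no pair, with -0.58 (adjusted p = 0.245) and -0.37 (adjusted p = 0.492) in C. hamatus. Both rows come from the same tuna species. Isoform 2 took 11.5%, 35.2% and 30.1% of the counts on these rows in C. hamatus replicates 1 to 3 (95% Wilson intervals 10.1% to 13.0%, 32.4% to 38.0% and 28.1% to 32.2%). It took 7.72%, 5.14% and 5.82% in G. acuticeps, with 8.58%, 9.19% and 10.3% in T. bernacchii. The means were 25.6 ± 12.5% in C. hamatus, 6.23 ± 1.34% for G. acuticeps and 9.36 ± 0.885% for T. bernacchii (SD, n = 3 each). Each C. hamatus share was above the other 6, and the interval of replicate 1 overlapped that of each T. bernacchii library. Those ran from 7.24% to 10.14%, 7.87% to 10.7% and 9.42% to 11.3% in T. bernacchii replicates 1 to 3, the first overlapping only just. Intervals cover counting error only. Chromaffin and kidney tubule marker sums were also higher in C. hamatus replicates 2 and 3 than in replicate 1. Their part was not tested.

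**Figure D4:**
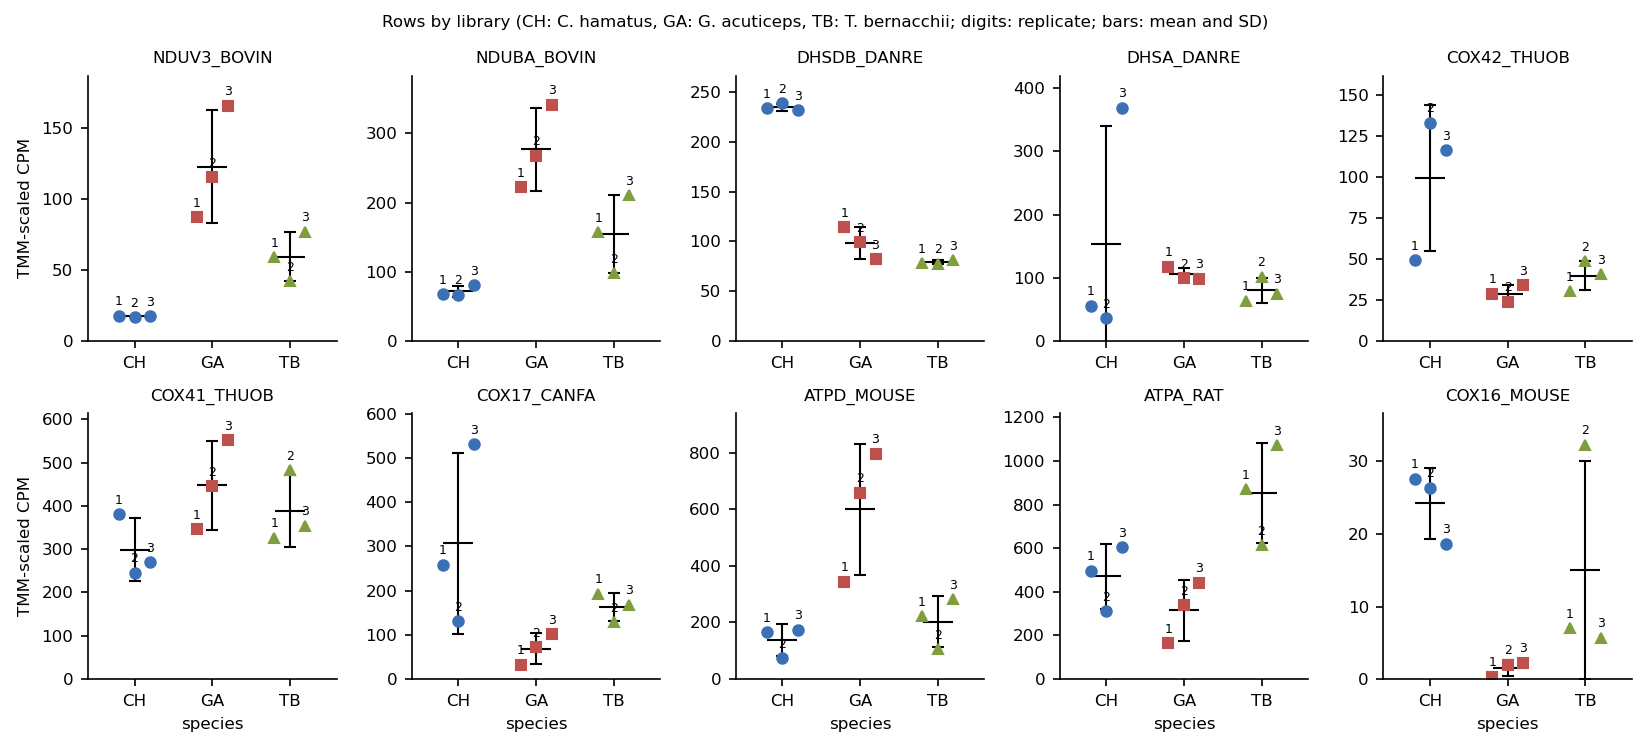
TMM-scaled CPM (vertical axes from 0) of 10 rows of the chain and its assembly factors, 1 symbol per library with its replicate number, and the mean and SD of each species, with bars cut at 0. DHSDB_DANRE and NDUV3_BOVIN separate C. hamatus from both other species with little spread within C. hamatus, and DHSA_DANRE is high in C. hamatus replicate 3 alone.

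Several proteins of complex IV were split over rows of different organisms, and adding the rows changed the calls. COX5B_BOVIN, a zinc-binding subunit, had 58.9, 83.6 and 506 CPM in C. hamatus and no counts in the other species. It was at least 325-fold higher than in G. acuticeps (adjusted p = 0.0017) and at least 317-fold higher than in T. bernacchii (adjusted p = 0.00224). Replicate 3 was the highest of these libraries, and without it the bounds were 107-fold and 104-fold (adjusted p = 0.00103 and 0.00147, alternatives 2.7e-05 to 0.248 and alternatives 3.27e-05 to 0.0281). COX5B_PIG, counted in all 9 libraries, had 69.8, 75.5 and 56.4 CPM in C. hamatus, against 64.8, 159 and 219 in G. acuticeps and against 57.8, 60.9 and 77.3 in T. bernacchii. It was called in no pair with all libraries. Without G. acuticeps replicate 1, C. hamatus was called below G. acuticeps, at -1.52 (adjusted p = 0.0205, alternatives 0.0205 to 0.292), and G. acuticeps above T. bernacchii, at 1.55 (adjusted p = 0.0256, alternatives 0.0256 to 0.242). Together they stood at 283 ± 242 CPM in C. hamatus, 148 ± 77.9 CPM for G. acuticeps and 65.4 ± 10.5 CPM for T. bernacchii (mean ± SD, n = 3 each). The summed values were 0.94 (SE 0.61, adjusted p = 0.248) against G. acuticeps and 2.11 (SE 0.63, adjusted p = 0.0281) against T. bernacchii. The bovine row took 45.8, 52.6 and 90.0% of COX5B counts in C. hamatus replicates 1 to 3.

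CX6B1_BOVIN, a subunit on the outer face that joins the monomers of the complex IV dimer, had no counts in C. hamatus, against 31.8, 27.9 and 26.2 CPM in G. acuticeps and 99.5, 92.5 and 119.8 CPM in T. bernacchii. C. hamatus was at least 37.2-fold below G. acuticeps (adjusted p = 8.81e-05) and at least 135-fold below T. bernacchii (adjusted p = 0.00011). CX6B1_HUMAN was not called, at 0.44 (adjusted p = 0.466) and 0.55 (adjusted p = 0.393), nor was CX6B1_MOUSE, with at most 12.3 CPM in any library. The 3 rows added to 151 ± 28.8 CPM in C. hamatus, 137 ± 47.1 CPM for G. acuticeps and 204 ± 21.3 CPM for T. bernacchii (mean ± SD, n = 3 each). On these sums the values were 0.14 (SE 0.38, adjusted p = 0.791) against G. acuticeps and -0.43 (SE 0.38, adjusted p = 0.423) against T. bernacchii.

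COX6A_CYPCA, a subunit with liver-type and heart-type forms in mammals, had 109, 49.7 and 478 CPM in C. hamatus replicates 1 to 3, with 9.96, 8.29 and 26.6 CPM in G. acuticeps and with 30.4, 60.2 and 28.5 CPM in T. bernacchii. C. hamatus replicates 1 and 3 were above all other libraries and replicate 2 was within the T. bernacchii range. The row was called at 3.81 (SE 0.87, adjusted p = 0.00585) against G. acuticeps, or 2.38 (adjusted p = 0.0155, alternatives 2.97e-05 to 0.483) without C. hamatus replicate 3. Against T. bernacchii it was 2.42 (SE 0.82, adjusted p = 0.044), lost when C. hamatus library 3, G. acuticeps library 1 or 2, or T. bernacchii library 1 or 3 was left out (values 1.004 to 2.48, alternatives 0.0105 to 0.436). Added to COX6A_ONCMY, it was called in neither pair, at 0.56 (SE 0.60, adjusted p = 0.483) and 0.67 (SE 0.60, adjusted p = 0.436). COX5A_OTOCR, on the inner face, had 35.5, 31.1 and 106 CPM in the C. hamatus libraries, 74.7, 106 and 149 in those of G. acuticeps and 341, 118 and 345 in those of T. bernacchii. Each C. hamatus library was below each T. bernacchii library, and the row was called at -2.21 (SE 0.61, adjusted p = 0.0188), lost when C. hamatus library 1 or 2, or T. bernacchii library 1 or 3 was left out (values -2.02 to -1.92, alternatives 0.00451 to 0.0679). It was at -3.01 (adjusted p = 0.00552, alternatives 0.00451 to 0.0679) without C. hamatus replicate 3. Without that library it was also called against G. acuticeps, at -1.73 (adjusted p = 0.0336, alternatives 0.0336 to 0.831), where all libraries gave -0.93 (adjusted p = 0.232). Against T. bernacchii, with COX5A_PONPY added, the value was -1.02 (SE 0.39, adjusted p = 0.0679). Rows of 1 mnemonic may share reads, so how the counts of a protein fall on each row is uncertain.

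**Figure D5:**
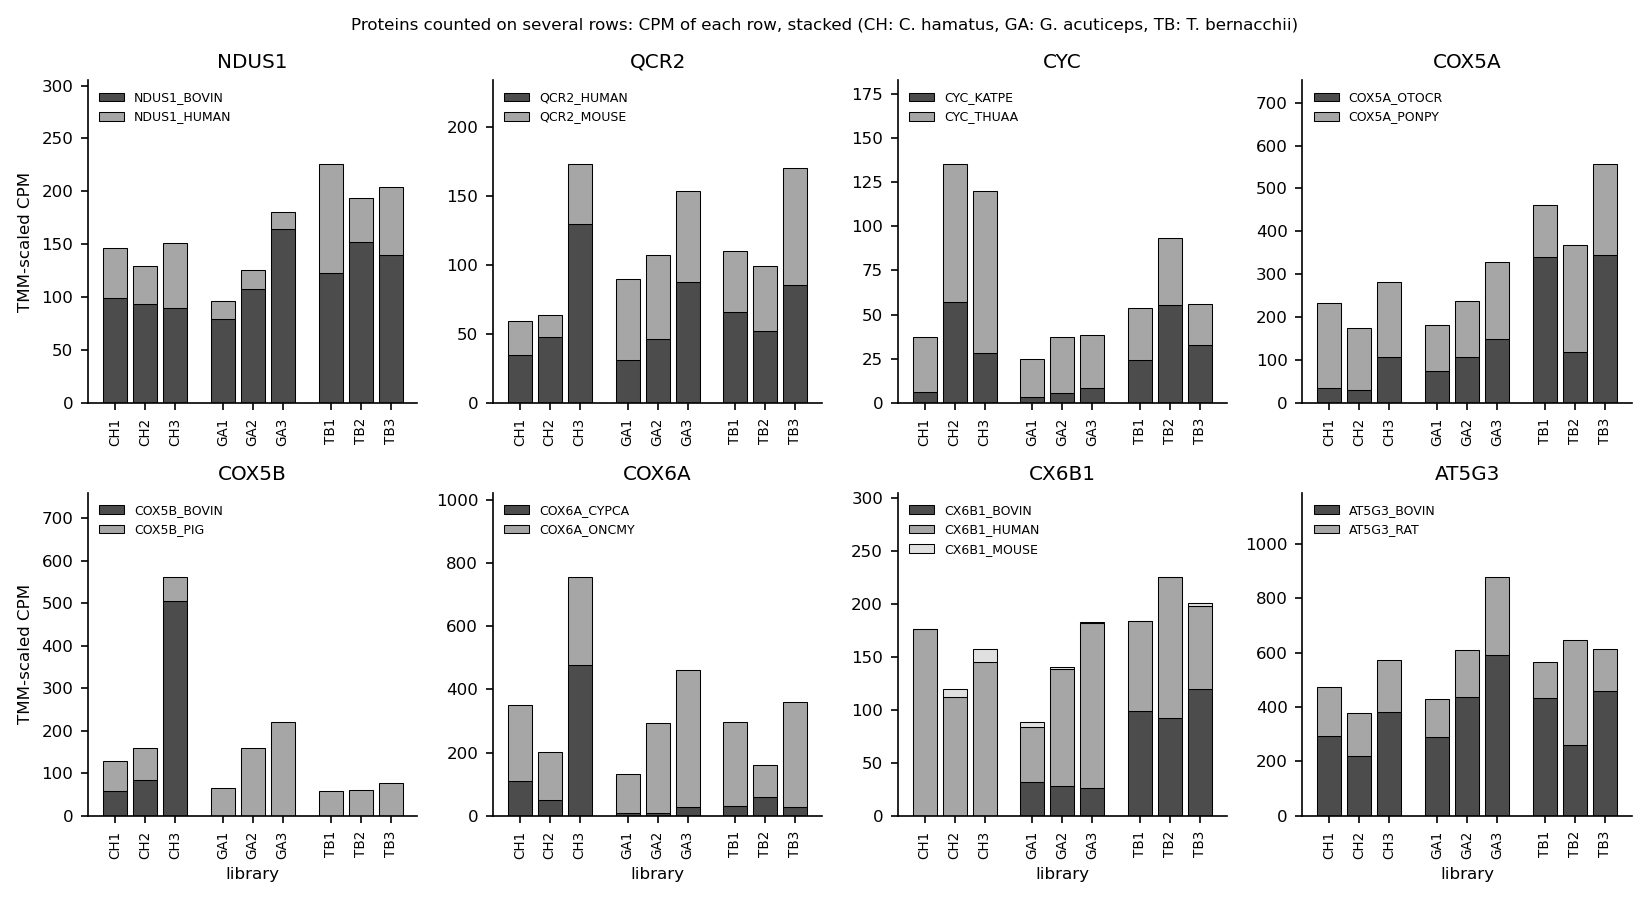
TMM-scaled CPM of 8 proteins counted on 2 or 3 rows, stacked by row in each library. COX5B_BOVIN carries counts in C. hamatus and in no library of the other species, CX6B1_BOVIN in the other species and in no C. hamatus library, and the stacked heights of CX6B1 overlap between C. hamatus and G. acuticeps.

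Other subunits of complex IV were highest in G. acuticeps. CX6C1_THUOB, a small membrane subunit, had 68.4, 53.5 and 81.4 CPM in C. hamatus, against 177, 329 and 432 in G. acuticeps and against 108, 76.7 and 142 in T. bernacchii. All G. acuticeps libraries were above all others. The value was -2.20 (SE 0.45, adjusted p = 0.0033) in C. hamatus against G. acuticeps, called without each library in turn. In G. acuticeps against T. bernacchii it was 1.52 (SE 0.44, adjusted p = 0.0236), lost when G. acuticeps library 2 or 3, or T. bernacchii library 1 or 2 was left out (values 1.27 to 1.62, alternatives 0.00529 to 0.0889). COX8A_TRACR, among the smallest subunits, had 92.3, 89.3 and 133 CPM in C. hamatus replicates 1 to 3, with 136, 225 and 316 CPM in G. acuticeps and with 59.8, 48.8 and 100.1 CPM in T. bernacchii. All G. acuticeps libraries were above all others, and the row was called in G. acuticeps against T. bernacchii at 1.70 (SE 0.45, adjusted p = 0.0162), lost when G. acuticeps library 3, or T. bernacchii library 1 was left out (values 1.44 to 1.61, alternatives 0.00234 to 0.0633). In C. hamatus against G. acuticeps it was called without G. acuticeps replicate 1, at -1.40 (adjusted p = 0.046, alternatives 0.0443 to 0.234), and not with all libraries, at -1.11 (adjusted p = 0.0672).

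CX7A2_MOUSE, a form of subunit 7A, had 8.58, 10.5 and 110.4 CPM in the C. hamatus libraries, 9.03, 5.28 and 26.0 in those of G. acuticeps and 8.23, 60.6 and 11.2 in those of T. bernacchii, and was called in no pair. Its high libraries were C. hamatus replicate 3 and T. bernacchii replicate 2. NDUA4_MOUSE, first described in complex I and later assigned to complex IV, had 188, 101 and 137 CPM in C. hamatus, against 71.3, 169 and 293 in G. acuticeps and against 137, 127 and 180.3 in T. bernacchii, with overlap of all groups and no call.

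Complex V had 3 of 11 tested rows called in C. hamatus against G. acuticeps, all lower, beside 42.0% of all rows (16.8% lower). Against T. bernacchii edgeR called 0 of 11, beside 32.4% of all rows. In that pair 1 of 11 was at an unadjusted p under 0.05, and DESeq2 called 0. ATPD_MOUSE, the δ subunit of the rotating central stalk, had 165, 73.1 and 174 CPM in C. hamatus replicates 1 to 3, with 343, 659 and 796 CPM in G. acuticeps and with 222, 105 and 282 CPM in T. bernacchii. All G. acuticeps libraries were above all others. The difference was -2.12 (SE 0.54, adjusted p = 0.0102) in C. hamatus against G. acuticeps, called without each library in turn, and -1.87 (adjusted p = 0.114, alternatives 0.000975 to 0.114) with C. hamatus replicate 1 alone. In G. acuticeps against T. bernacchii it was 1.56 (SE 0.53, adjusted p = 0.0461), lost when G. acuticeps library 2 or 3, or T. bernacchii library 1 or 2 was left out (values 1.25 to 1.64, alternatives 0.0192 to 0.137).

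The other called rows belong to the peripheral stalk, which holds the catalytic head still. ATP5H_HUMAN, subunit d, had 136, 84.9 and 129 CPM in the C. hamatus libraries, 165, 407 and 653 in those of G. acuticeps and 219.9, 263 and 279 in those of T. bernacchii. No C. hamatus library reached the lowest of the other 6. The value was -1.81 (SE 0.50, adjusted p = 0.0152) against G. acuticeps, lost when C. hamatus library 2, or G. acuticeps library 3 was left out (values -1.64 to -1.32, alternatives 0.00289 to 0.168), and -1.12 (adjusted p = 0.106) against T. bernacchii. ATPO_BOVIN, the subunit that confers oligomycin sensitivity, had 159, 86.6 and 282 CPM in C. hamatus, against 356, 517 and 689.5 in G. acuticeps and against 254, 169 and 355 in T. bernacchii. The C. hamatus libraries were below those of G. acuticeps and overlapped those of T. bernacchii. Against G. acuticeps the value was -1.57 (SE 0.52, adjusted p = 0.0324), lost when C. hamatus library 1 or 2, or G. acuticeps library 2 or 3 was left out (values -1.67 to -1.26, alternatives 0.0119 to 0.11). ATP5J_RAT, coupling factor 6 of the same stalk, had 146, 159 and 350.3 CPM in C. hamatus replicates 1 to 3, with 404, 616 and 822 CPM in G. acuticeps and with 213, 78.4 and 311 CPM in T. bernacchii. All G. acuticeps libraries were above all others, and the value in C. hamatus against G. acuticeps was -1.49 (adjusted p = 0.0594), or -2.02 (adjusted p = 0.0265, alternatives 0.0265 to 0.173) without C. hamatus replicate 3. In G. acuticeps against T. bernacchii it was 1.61 (adjusted p = 0.0564), or 1.62 (adjusted p = 0.0382, alternatives 0.0289 to 0.158) without that library.

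The catalytic subunits were not called in C. hamatus. ATPA_RAT, the α subunit, had 497, 310.3 and 606 CPM in the C. hamatus libraries, 164, 339 and 442 in those of G. acuticeps and 869.7, 615 and 1074 in those of T. bernacchii. All T. bernacchii libraries were above all others. The value was 0.58 (adjusted p = 0.351) in C. hamatus against G. acuticeps and -0.86 (adjusted p = 0.195) against T. bernacchii. G. acuticeps was lower than T. bernacchii at -1.44 (SE 0.48, adjusted p = 0.0432), lost when C. hamatus library 1, G. acuticeps library 1, 2 or 3, or T. bernacchii library 1 or 3 was left out (values -1.70 to -1.11, alternatives 0.0208 to 0.168). ATPB_CYPCA, the β subunit that makes ATP, had 518, 307 and 294 CPM in C. hamatus, against 223, 374 and 775 in G. acuticeps and against 452, 666 and 511 in T. bernacchii, with overlap of all groups. ATPG_BOVIN, the γ subunit of the central shaft, had 174, 79.5 and 193 CPM in C. hamatus replicates 1 to 3, with 109.9, 230.1 and 411 CPM in G. acuticeps and with 217, 225 and 252 CPM in T. bernacchii. Its C. hamatus libraries were below those of T. bernacchii, and no pair was called. The remaining rows, the stalk subunit AT5F1, the rotor ring rows AT5G3_RAT and AT5G3_BOVIN and the membrane subunit ATP5L, ran from -0.56 to -0.19 in C. hamatus against G. acuticeps and from -0.36 to 0.21 against T. bernacchii, with no call.

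Among 14 rows of assembly and associated factors, 3 were called in C. hamatus against G. acuticeps, 2 higher and 1 lower. Against T. bernacchii 3 were called, 1 higher and 2 lower. The shares of all rows called were 42.0% and 32.4% in the same order. COX7R_HUMAN, a relative of subunit 7A that helps join complexes III and IV in mice, had no counts in C. hamatus, against 63.5, 107 and 148 CPM in G. acuticeps and 121, 146 and 225 CPM in T. bernacchii. C. hamatus was at least 138-fold below G. acuticeps (adjusted p = 8.81e-05) and at least 213-fold below T. bernacchii (adjusted p = 0.000132). COX14_DANRE, which acts early in complex IV assembly, had 59.6, 43.3 and 106 CPM in C. hamatus, 82.2, 84.2 and 106 CPM in G. acuticeps and no counts in T. bernacchii. Relative to T. bernacchii it was at least 102-fold higher in C. hamatus (adjusted p = 0.000138) and at least 133-fold higher in G. acuticeps (adjusted p = 8.19e-05). Neither mnemonic had a second row. Of the 74 chain rows, 4 were at 0 throughout C. hamatus, 4 throughout G. acuticeps and 2 throughout T. bernacchii, beside 4.77%, 5.93% and 3.84% of all rows tested in the same order.

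COX17_CANFA, the copper chaperone that supplies complex IV, had 259, 131 and 532 CPM in the C. hamatus libraries, 32.1, 72.4 and 102 in those of G. acuticeps and 193, 129 and 168 in those of T. bernacchii. All C. hamatus libraries were above all G. acuticeps libraries and overlapped those of T. bernacchii. The difference was 2.16 (SE 0.59, adjusted p = 0.014) against G. acuticeps, lost when G. acuticeps library 1 or 2 was left out (values 1.79 to 2.10, alternatives 0.00212 to 0.0637), and 1.49 (adjusted p = 0.0456, alternatives 0.00212 to 0.0637) without C. hamatus replicate 3. COX16_MOUSE, a further assembly factor, had 27.6, 26.4 and 18.7 CPM in C. hamatus, against 0.311, 2.01 and 2.24 in G. acuticeps and against 6.98, 32.3 and 5.73 in T. bernacchii. The G. acuticeps libraries were the lowest of the 9. Its replicate 1 was under the floor of 3 counts (0.934 CPM there), so differences from G. acuticeps are uncertain in size. The value was 3.92 (SE 0.91, adjusted p = 0.00657) in C. hamatus against G. acuticeps, called without each library in turn. In G. acuticeps against T. bernacchii it was -3.22 (SE 0.89, adjusted p = 0.0194), lost when G. acuticeps library 1, 2 or 3, or T. bernacchii library 2 was left out (values -3.52 to -1.98, alternatives 0.00142 to 0.0706), and -1.98 (adjusted p = 0.0694, alternatives 0.00142 to 0.0706) without T. bernacchii replicate 2.

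COX11_MOUSE, which helps place copper in complex IV, had 4.17, 3.05 and 4.37 CPM in C. hamatus replicates 1 to 3, with 2.80, 5.78 and 8.65 CPM in G. acuticeps and with 26.2, 12.8 and 9.41 CPM in T. bernacchii. C. hamatus was below T. bernacchii in each library, at -2.05 (SE 0.69, adjusted p = 0.0444), lost when C. hamatus library 1, 2 or 3, G. acuticeps library 1, 2 or 3, or T. bernacchii library 1 was left out (values -2.14 to -1.52, alternatives 0.0156 to 0.243). NDUF4_MOUSE, a complex I assembly factor, had 0, 0.754 and 1.32 CPM in G. acuticeps, against 7.98, 17.8 and 6.11 CPM in T. bernacchii, and was called at -3.77 (SE 1.02, adjusted p = 0.0179), lost when G. acuticeps library 1 or 2, or T. bernacchii library 2 was left out (values -3.62 to -3.18, alternatives 0.000796 to 0.0929). G. acuticeps libraries 1 and 2 were at or under the floor of 3 counts, so the size of that difference is uncertain. COX10_MOUSE and COX15_BOVIN, which make the heme A of complex IV, were called in no pair, with log2 fold changes of -0.30 (adjusted p = 0.716) and -0.14 (adjusted p = 0.86) in C. hamatus against G. acuticeps. NDUF6_BOVIN, a complex I assembly factor, had 52.4, 16.9 and 238 CPM in the C. hamatus libraries, 34.2, 35.4 and 33.0 in those of G. acuticeps and 83.5, 57.9 and 88.7 in those of T. bernacchii. C. hamatus replicate 3 was the highest of the 9, replicate 2 the lowest, and no pair was called. Without replicate 2 it was called higher in C. hamatus than in G. acuticeps, at 2.07 (adjusted p = 0.0211, alternatives 0.0211 to 1), where all libraries gave 1.58 (adjusted p = 0.117).

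NDUF5_DANRE, a further complex I assembly factor, had 2.55, 2.37 and 16.3 CPM in C. hamatus, against 14.01, 10.0 and 11.4 in G. acuticeps and against 3.24, 2.36 and 2.91 in T. bernacchii. Replicate 3 was the highest library of the 9, and the other C. hamatus libraries lay near those of T. bernacchii and below those of G. acuticeps. With all libraries no pair was called, at -0.73 (adjusted p = 0.498) in C. hamatus against G. acuticeps and 2.04 (adjusted p = 0.0884) in G. acuticeps against T. bernacchii. Without C. hamatus replicate 3 both pairs were called, at -2.26 (adjusted p = 0.029, alternatives 0.029 to 0.79) and 2.05 (adjusted p = 0.0246, alternatives 0.0144 to 0.202). The other rows, NDUF3, COX20, AT5SL and ATP5S, ran from 0.17 to 0.54 in C. hamatus against G. acuticeps and from 0.50 to 1.26 against T. bernacchii, with no call in any pair.

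Replicate 3 of C. hamatus ran high on chain rows relative to the other libraries of its species. It was over 2-fold above both of them on 17 of 74 chain rows (23.0%), beside 16.4% of all rows tested. Its median ratio to the higher of replicates 1 and 2 was 1.20 on chain rows and 0.73 on all rows. The highest ratios were 10.5 for CX7A2_MOUSE, 6.54 for DHSA_DANRE, 6.38 for NDUF5_DANRE and 6.05 for COX5B_BOVIN. Interrenal markers were high in the same library.

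Without C. hamatus replicate 3, 32 of 74 rows were called in C. hamatus against G. acuticeps, 9 higher and 23 lower, beside 41.3% of all rows (23.7% and 17.6%). Against T. bernacchii 14 were called, 3 higher and 11 lower, beside 30.9% (15.3% and 15.5%). In the same setting 11 rows differed from both other species the same way, 2 higher and 9 lower, beside 17.2% (8.79% and 8.38%), where with all libraries there were 4 higher and 3 lower. Complex I held 10 of the 23 rows called lower against G. acuticeps.

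Other genes of oxidative phosphorylation, outside the name pattern, came from a list of 57 mnemonics, of which 38 rows were in the table and 34 were tested. In C. hamatus, 4 were higher and 8 lower than in G. acuticeps, beside the 42.0% of all rows called in that pair (25.1% higher and 16.8% lower). Set against T. bernacchii, 2 were higher and 4 lower, beside 32.4% (17.6% higher and 14.8% lower), and the counts of the smaller groups that follow are read against the same shares. Of 13 further assembly factors, 4 were called lower against G. acuticeps. Against T. bernacchii edgeR called 0 of 13, with 1 at an unadjusted p under 0.05, and DESeq2 called 1. SURF1_TAKRU, which acts on complex IV, was at -1.76 (adjusted p = 0.0255), lost when C. hamatus library 3, or G. acuticeps library 1, 2 or 3 was left out (values -1.92 to -1.56, alternatives 0.00674 to 0.178). SCO2_DANRE, a copper carrier for complex IV, was at -1.93 (adjusted p = 0.0363), lost when C. hamatus library 2 or 3, or G. acuticeps library 1, 2 or 3 was left out (values -2.24 to -1.66, alternatives 0.0148 to 0.27). ECSIT_DANRE, which acts on complex I, was at -1.19 (adjusted p = 0.0456), lost when C. hamatus library 1, 2 or 3, G. acuticeps library 1, 2 or 3, or T. bernacchii library 1 was left out (values -1.39 to -0.96, alternatives 0.0243 to 0.157). ATPF1_DANRE, which acts on ATP synthase, was at -1.60 (adjusted p = 0.0114), lost when G. acuticeps library 3 was left out (value -1.34, alternatives 0.00123 to 0.0864).

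Among 17 carriers and neighbouring proteins, 4 were higher in C. hamatus and 4 lower, set against G. acuticeps, and 3 were lower than in T. bernacchii. VDAC2_MELGA, a channel of the outer membrane, had 51.7, 71.7 and 65.9 CPM in C. hamatus replicates 1 to 3, with 242, 205 and 275 CPM in G. acuticeps and with 314, 239 and 379 CPM in T. bernacchii. All C. hamatus libraries were below all others. The difference was -1.93 (SE 0.36, adjusted p = 0.00225) against G. acuticeps and -2.30 (SE 0.37, adjusted p = 0.0014) against T. bernacchii, both called without each library in turn. UCP2_CYPCA, an uncoupling-protein homologue, had 0.464, 9.81 and 3.57 CPM in the C. hamatus libraries, 89.3, 76.6 and 81.4 in those of G. acuticeps and 24.7, 14.1 and 33.4 in those of T. bernacchii. C. hamatus was again below the others in each library, at -4.19 (SE 0.84, adjusted p = 0.00314) against G. acuticeps and -2.42 (SE 0.79, adjusted p = 0.0391) against T. bernacchii. The second call was lost when C. hamatus library 3, G. acuticeps library 1, 2 or 3, or T. bernacchii library 1 or 3 was left out (values -2.43 to -2.09, alternatives 0.00517 to 0.124). IMMT_MOUSE, which shapes the cristae, had 87.2, 44.7 and 65.1 CPM in C. hamatus, against 235, 251 and 286 in G. acuticeps and against 50.1, 111 and 93.1 in T. bernacchii. Its G. acuticeps libraries were above all others, with -1.97 (SE 0.43, adjusted p = 0.00451) in C. hamatus against G. acuticeps. ADT1_RABIT, an ADP and ATP exchanger of muscle in mammals, had no counts in C. hamatus, against 16.2, 9.30 and 53.0 CPM in G. acuticeps and 1.25, 6.39 and 1.55 CPM in T. bernacchii. The summed skeletal muscle markers were also high in G. acuticeps, mostly through ACTS_ORYLA. The exchanger row ADT2_RAT, with far more counts, had 1108, 1075 and 1049 CPM in C. hamatus and 191, 423 and 851 in G. acuticeps. In T. bernacchii it had 813, 927 and 1228 CPM. ADT2_RAT was called in no pair with all libraries, at 1.14 (adjusted p = 0.103) in C. hamatus against G. acuticeps. Without G. acuticeps replicate 3 that difference was called, at 1.78. ADT3_HUMAN and the channel row VDAC1_PIG were called in no pair.

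Among the rows called higher, GPDM_HUMAN, which passes electrons from glycerol 3-phosphate to ubiquinone, had 7.89, 19.6 and 3.97 CPM in C. hamatus replicates 1 to 3, with 0.311, 0.754 and 1.02 CPM in G. acuticeps and with 1.99, 4.04 and 1.26 CPM in T. bernacchii. Each C. hamatus library was above each G. acuticeps library, at 3.80 (SE 0.94, adjusted p = 0.00877), called without each library in turn. Its counts in G. acuticeps were 1, 3 and 10, near the floor of 3 counts, so the size of the difference is uncertain. Against T. bernacchii the row was not called, at 2.12 (adjusted p = 0.0845), and without C. hamatus replicate 3 it was, at 2.52 (alternatives 0.0432 to 0.329). The other rows called higher against G. acuticeps each depended on single libraries. CCHL_CHICK, which attaches heme to cytochrome c, was at 3.56 (adjusted p = 0.0291), lost when C. hamatus library 1 or 2, or G. acuticeps library 1, 2 or 3 was left out (values 3.06 to 3.98, alternatives 0.0106 to 0.12). Its counts were 36, 21 and 6 in C. hamatus replicates 1 to 3. In G. acuticeps they were 1, 3 and 3, at or under the floor of 3 counts, so the size of the difference is uncertain. ATIF1_PONAB, an inhibitor of ATP synthase, was at 1.99 (adjusted p = 0.024), lost when C. hamatus library 3, or G. acuticeps library 1, 2 or 3 was left out (values 1.56 to 1.98, alternatives 0.00319 to 0.237). ETFD_PIG, which feeds electrons of fatty acid oxidation to ubiquinone, was at 1.78 (adjusted p = 0.0351), lost when C. hamatus library 1 or 3, G. acuticeps library 1, 2 or 3, or T. bernacchii library 1 was left out (values 1.52 to 1.87, alternatives 0.0058 to 0.145).

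Of 4 tested regulators of mitochondrial gene expression, NRF1_DANRE, a transcription factor for nuclear genes of the chain, had 31.1, 29.8 and 15.9 CPM in the C. hamatus libraries, 38.0, 45.5 and 46.1 in those of G. acuticeps and 72.3, 47.1 and 81.6 in those of T. bernacchii. C. hamatus was below T. bernacchii at -1.39 (SE 0.42, adjusted p = 0.0282), lost when C. hamatus library 3, G. acuticeps library 2, or T. bernacchii library 1 or 3 was left out (values -1.36 to -1.14, alternatives 0.0109 to 0.195). TFB1M_XENTR, which modifies mitochondrial ribosomal RNA, had 14.8, 5.41 and 7.94 CPM in C. hamatus, against 11.5, 20.1 and 13.8 in G. acuticeps and against 0, 0.673 and 0.0970 in T. bernacchii. TFB2M_HUMAN, a mitochondrial transcription factor, had 42.9, 27.1 and 137 CPM in C. hamatus replicates 1 to 3, with 47.3, 42.5 and 31.9 CPM in G. acuticeps and with 0.499, 10.1 and 1.07 CPM in T. bernacchii. Both were called higher in C. hamatus than in T. bernacchii (adjusted p = 0.00341 and 0.0117) and higher in G. acuticeps than in T. bernacchii (adjusted p = 0.00182 and 0.0265). Counts in T. bernacchii replicates 1 to 3 were 0, 2 and 1 for TFB1M_XENTR, under the floor of 3 counts. For TFB2M_HUMAN they were 2, 30 and 11, the first under that floor. The size of these differences is thus uncertain. In G. acuticeps the TFB2M_HUMAN call was lost when G. acuticeps library 1 or 2, or T. bernacchii library 1 or 3 was left out (values 2.95 to 3.57, alternatives 0.00161 to 0.0679). GABPA_MOUSE, an activator of nuclear genes for the chain, was not called, at -1.43 (adjusted p = 0.0531) against G. acuticeps and -0.73 (adjusted p = 0.318) against T. bernacchii. It had 129, 36.2 and 32.6 CPM in the C. hamatus libraries, 208, 167 and 157 in those of G. acuticeps and 119, 92.2 and 118 in those of T. bernacchii. Replicate 1 was the highest C. hamatus library, and without it both pairs were called, at -2.43 (alternatives 0.00241 to 0.508) and -1.64 (alternatives 0.0142 to 0.739).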

How the data were processed

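RNA from head kidney of 3 species, 3 libraries each, was extracted with Trizol and made into TruSeq libraries, per the labels' protocols. The authors deposited 1 table of read counts per UniProt entry name, not normalized, and the counts were used as deposited. Aligner, reference and counter were not given in the sources used here, so reads shared by rows of 1 protein, or lying on no row, cannot be traced. Library totals ran from 2501922 to 12055675 counts, and no row of mitochondrial DNA was found.

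Rows were filtered with filterByExpr, scaled by TMM and fitted over all 9 libraries with edgeR 4.0.16 (limma 3.58.1, R 4.3.3), with species as the only term. Quasi-likelihood p-values were adjusted by Benjamini-Hochberg over 8662 rows, with 0.05 as the threshold. Standard errors are the size of the log2 fold change divided by the square root of F, and are approximate. DESeq2 1.42.0, other scalings and filters, a replicate block, the paired groups alone, rows of 1 mnemonic summed and each library left out were tried, and the procedure was tested on simulated data. Settings that halve the counts of C. hamatus replicate 3, or leave out 2 of its libraries together, were chosen after seeing the data. Where a species was at 0, a fold is a bound against 3 counts per library. Errors are SD over 3 libraries, and Wilson intervals (95%, scipy 1.17.1) cover counting error only. Figures were drawn with matplotlib 3.10.9.

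The members, the lists of other genes and the tests were chosen with earlier results of these data known. The rule for named rows took the core subunits and isoforms, up to 4 highest and 4 lowest rows per complex that set C. hamatus apart, and the 2 largest differences per complex called between G. acuticeps and T. bernacchii, with a mean count of at least 20. No sequences were used.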

Additional observations from a re-analysis of the deposited data

How the results depend on the processing

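Of 296 chain results, 69 passed the threshold, and 33 of these also passed with each library left out in turn. The results cover each tested chain row in the 3 pairs and against the mean of the others, so they are not independent. No such count of kept calls was made over all rows tested. Chain rows called were 32.4% in C. hamatus against G. acuticeps and 16.2% against T. bernacchii, beside 42.0% and 32.4% of all rows. Between G. acuticeps and T. bernacchii they were 18.9%, beside 31.4%. In C. hamatus against the mean of the others they were 25.7%, beside 40.8%. Leaving out 1 library gave 13 (without G. acuticeps replicate 2) to 32 (without C. hamatus replicate 3) called rows in C. hamatus against G. acuticeps, where all libraries gave 24. The range was 6 to 17 in G. acuticeps against T. bernacchii, for the same pair of libraries, where all gave 14. It was 12 to 22 against the mean of the other species, where all gave 19. The low end was without C. hamatus replicate 2 (32.8% of all rows), the high end without its replicate 3 (37.4%). For rows apart the range was 4 to 11 in C. hamatus and 1 to 10 in G. acuticeps, where all gave 7 in each. The value of DHSA_DANRE in C. hamatus against G. acuticeps ran from -1.19 to 0.995 over these settings. With C. hamatus replicate 1 as its only library, the spread of that species was not measured and was assumed to be like the others. Counts of called rows rest on that assumption there, so chain rows are not compared with all rows in this setting. Over all rows the counts were then 2247 against G. acuticeps, 1780 against T. bernacchii, 2041 against the mean and 875 apart.

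With rows of 1 mnemonic summed, COX5B turned to 1.52 (adjusted p = 0.0356, alternatives 0.0356 to 0.647) in C. hamatus against the mean of the others, where COX5B_PIG alone was negative. CX6B1 turned to 0.14 against G. acuticeps, where CX6B1_BOVIN alone was negative. By construction these sums add the other rows of the protein. DESeq2 called 11 higher and 17 lower in C. hamatus against G. acuticeps, 6 and 10 against T. bernacchii, and 11 and 9 in G. acuticeps against T. bernacchii, over 73 chain rows with an adjusted p. The shares of all such rows called were 43.1%, 35.8% and 34.3% in the same order. Rows apart in G. acuticeps were then 7 higher and 4 lower, beside 18.4%. Halving the counts of C. hamatus replicate 3 added a call for NDUBA_BOVIN against T. bernacchii, at -1.13 (adjusted p = 0.0487, alternatives 0.0166 to 0.211).

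Shares of all counts moved with the denominator. Complex I in G. acuticeps became 0.375% with TMM-scaled sizes, 0.408% without the 20 highest rows and 0.361% without globin and muscle rows. In T. bernacchii, leaving out the 20 highest rows gave 0.369% for complex I, 0.0349% for II, 0.0967% for III, 0.244% for IV and 0.463% for V, and leaving out globin and muscle rows gave 0.308%, 0.0291%, 0.0807%, 0.203% and 0.386% in the same order. Of all counts, cytochrome c held 0.00309% in C. hamatus replicate 1 alone and a mean of 0.00306% in G. acuticeps. Without the 20 highest rows the G. acuticeps share became 0.00362%.

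The deviations of libraries with the same replicate number had correlations from -0.20 to 0.245. For libraries of different species with different numbers the correlations ran from -0.16 to 0.21. Whether the numbers pair samples was not tested. With a replicate block, 9 rows were higher and 17 lower in C. hamatus against G. acuticeps, 3 and 8 against T. bernacchii, 8 and 15 against the mean of the others, and 8 and 9 in G. acuticeps against T. bernacchii. The shares of all rows called were 39.1%, 30.4%, 37.7% and 29.6% in the same order. Over all rows, 1947 were higher and 1442 lower, 1446 and 1183, 2096 and 1168, and 1146 and 1422. Leaving out rows of mitochondrial DNA was not run, since the table holds none. Depth limits rows near the floor of 3 counts, where a lower level was not detectable.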
